A study of Homo sapiens with 9 samples.

Results

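The transcriptome of HEK293T cells that carried an empty FLAG vector was described from 3 Vector libraries of the 9 libraries in the series. HEK293T is a line derived from human embryonic kidney, and it carries the SV40 large T antigen. The labels give the genotype as WT, the cell type as epithelial, and the treatment as overexpression of the FLAG Vector. The labels do not state the promoter of the vector, its dose or the time of harvest. The 3 libraries were chosen by their labels, which call them biological replicates, and one of them has a title with transposed letters that was matched to its column by its number. The remaining 6 libraries, with PLK2 or PLK2(D223N), were not used. All samples are of a cultured line, so the levels below are those of this culture and not of kidney tissue.

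A table of RNA levels of a cell line can be read as a list of what the cell makes. Genes for ribosomes, translation and energy supply are commonly among the most abundant messages of dividing cells. Transcription factors of lineage and body position mark where a cell came from, while receptors, kinases and sensors mark which signals it is equipped to receive. HEK293 cells are widely used to express receptors and sensors from plasmids because many of these are thought to be low in the line.

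The level of a gene is given as TPM (transcripts per 1000000), which divides the reads of a gene by its length and then by the total, so that genes can be compared. The table lists 17083 genes. A gene counted as expressed where it reached 1 TPM in each of the 3 libraries, silent where its mean was under 0.1 TPM, and low otherwise. By this rule 11714 genes (68.6%) were expressed, 2544 (14.9%) were low and 2825 (16.5%) were silent. The count of expressed members of each list below is to be read against this 68.6%. Of all genes, 8426 had a mean of at least 10 TPM, 1572 of at least 100 and 120 of at least 1000. The median expressed gene stood at 23.1 TPM. Library totals were 16510186, 14288165 and 16097933 estimated counts, and 897 genes had 0 counts in all 3. Over the group of 3, a count of 0 allows up to 0.0640 CPM (counts per 1000000), which is 3 counts of the group total and covers counting error only. Values are mean ± SD over the 3 libraries, and an SD may be technical where cultures share a handling step. Genes with no row in the table are named as not analysed here, and nothing is said about their level.

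The start of a message matters for the most abundant genes. Messages for ribosomal proteins and translation factors are known to begin with a C followed by a run of pyrimidines (C or T), known as a terminal oligopyrimidine tract, through which their translation is regulated. The 9 windows below are shown because they belong to abundant genes and have such a run at the annotated start. Each has 15 bases before and 15 bases from the RefSeq start (GRCh38.p14), read 5′ to 3′ on the gene's strand, with the unbroken run of pyrimidines from the start in capitals.
RPS27, chr1:153990747-153990776, plus strand: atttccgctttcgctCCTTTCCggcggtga
RPL39, chrX:119791616-119791645, minus strand: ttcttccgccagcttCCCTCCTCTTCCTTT
RPS18, chr6:33272060-33272089, plus strand: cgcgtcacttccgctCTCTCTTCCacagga
RPL26, chr17:8383179-8383208, minus strand: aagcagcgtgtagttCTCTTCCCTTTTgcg
RPL7A, chr9:133348203-133348232, plus strand: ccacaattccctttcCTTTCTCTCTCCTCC
RPS24, chr10:78033848-78033877, plus strand: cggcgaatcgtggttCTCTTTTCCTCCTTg
RPL41, chr12:56116618-56116647, plus strand: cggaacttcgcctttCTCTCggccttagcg
EEF1A1, chr6:73521018-73521047, minus strand: gtcgccgtgaacgttCTTTTTCgcaacggg
NPM1, chr5:171387834-171387863, plus strand: cggggagcctgcgtcCTTTCCCTggtgtga

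In this set the run was 5 bases long in RPL41, 7 in RPS27 and EEF1A1, and reached the end of the shown window, 15 bases, in RPL39 and RPL7A. The next 6 windows are also of abundant genes and hold no such run, so they have no capitals.
RPS29, chr14:49598696-49598725, minus strand: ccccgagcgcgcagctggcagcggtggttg
RPL27, chr17:42998404-42998433, plus strand: ccggggtgaaaggttagcggaagtgtcctt
RPS15, chr19:1438381-1438410, plus strand: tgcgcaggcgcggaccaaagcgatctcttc
GAPDH, chr12:6535249-6535278, plus strand: agcgggtgcatccctgtccggatgctgcgc
TUBA1B, chr12:49131381-49131410, minus strand: cgccggccccgccctagtgcgttacttacc
ENO1, chr1:8878672-8878701, minus strand: gcgggcggcgcggacagtatctgtgggtac

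The last 3 of these encode a glycolytic enzyme (GAPDH and ENO1) and tubulin (TUBA1B), whereas RPS29, RPL27 and RPS15 encode ribosomal proteins. The windows start at the annotated base, and a start used in these cells may lie elsewhere. No window was available for RPS2 and RPL8, which are therefore not shown.

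The most abundant messages encoded ribosomal proteins, the parts of the ribosome, and 18 of the 20 highest genes by TPM belonged to this class, against 4 of the 20 highest by estimated counts, which are not divided by length. The other 2 by TPM were EEF1A1, which delivers aminoacyl-tRNA to the ribosome, and NPM1, a nucleolar protein of ribosome assembly. RPS27 (NCBI gene 6232, chromosome 1, 153990755 to 153992155, plus strand, GENCODE release 29 on GRCh38) was the highest, at 12307, 12457 and 12202 TPM. RPS2 followed at 13095, 11085 and 11700 TPM and RPL39 at 11804, 11837 and 11935 TPM. RPS2 overlapped with both of the others, while every library of RPS27 lay above those of RPL39. RPS18 (9405 TPM), RPL26 (8487 TPM), RPL7A (7312 TPM), RPS24 (7300 TPM) and RPL41 (6948 TPM) were also among the 10 highest. EEF1A1 (chromosome 6, 73515750 to 73523797, minus strand) stood at 6865, 6505 and 6664 TPM.

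Below these ribosomal genes lay the usual set of highly used genes of a dividing cell. GAPDH, a glycolytic enzyme (chromosome 12, 6533927 to 6538374, plus strand), stood at 4606, 4117 and 4071 TPM. TUBA1B reached 3144 ± 150 TPM and ACTB and ACTG1, the cytoplasmic actins, 2479 ± 151 and 2472 ± 166 TPM, with overlapping libraries. HSP90AA1 and HSP90AB1, the cytosolic HSP90 chaperones, had means of 2194 ± 290 and 2128 ± 31.4 TPM. HSP90AA1, the gene of the HSP90α protein named in the series title, ran from 1868 to 2423 TPM over the libraries, and its range covered the whole range of HSP90AB1. PTMA, a chromatin-linked acidic protein, stood at 2952 ± 134 TPM and ENO1 at 2904 ± 206 TPM.

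A small number of genes held much of the TPM. The 10 highest genes held 9.18%, the 100 highest 36.3% ± 1.16 and the 1000 highest 66.6%. The 120 genes at 1000 TPM or more held 38.6% and those between 100 and 1000 TPM 35.0%, whereas all genes that were low or silent held 0.131%. The 91 ribosomal protein genes together held 27.7% ± 0.97 of the TPM, and 58 of them were among the 100 highest. The same 100 also included 8 translation factors, 6 glycolytic enzymes, 6 chaperones, 6 cytoskeletal genes, 6 RNA-binding or chromatin genes, 2 genes of oxidative phosphorylation, 2 MTRNR2-like genes and 6 genes in none of these lists.

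The share held by short messages depends on how a level is counted. In estimated counts, which are not divided by length, the ribosomal protein genes held 6.83% ± 0.60 and the 100 highest genes 16.2%. The length implied by the table (counts divided by FPKM, FPKM being fragments per kilobase of length and per 1000000 fragments) was 51.1 bases for RPS27, 77.4 for RPL39, 23.7 for RPS29 and 23.2 for ATP5ME, a subunit of the ATP synthase. The median implied length was 543 bases at 1000 TPM or more, 1643 between 100 and 1000, 3023 between 10 and 100 and 3143 between 1 and 10. Among the 120 genes at 1000 TPM or more, 35 had an implied length under 300 bases, RPS27 and RPL39 among them. RPS27 was the first gene by TPM and number 397 by counts, and ATP5ME was number 92 by TPM but number 7915 by counts, with 368, 213 and 360 counts. By counts EEF1A1 led with 218431, 165574 and 195179, followed by RPS2, HSP90AA1, NPM1 and EEF2. How much of the TPM of the short genes comes from this division was not tested.

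**Figure D1:**
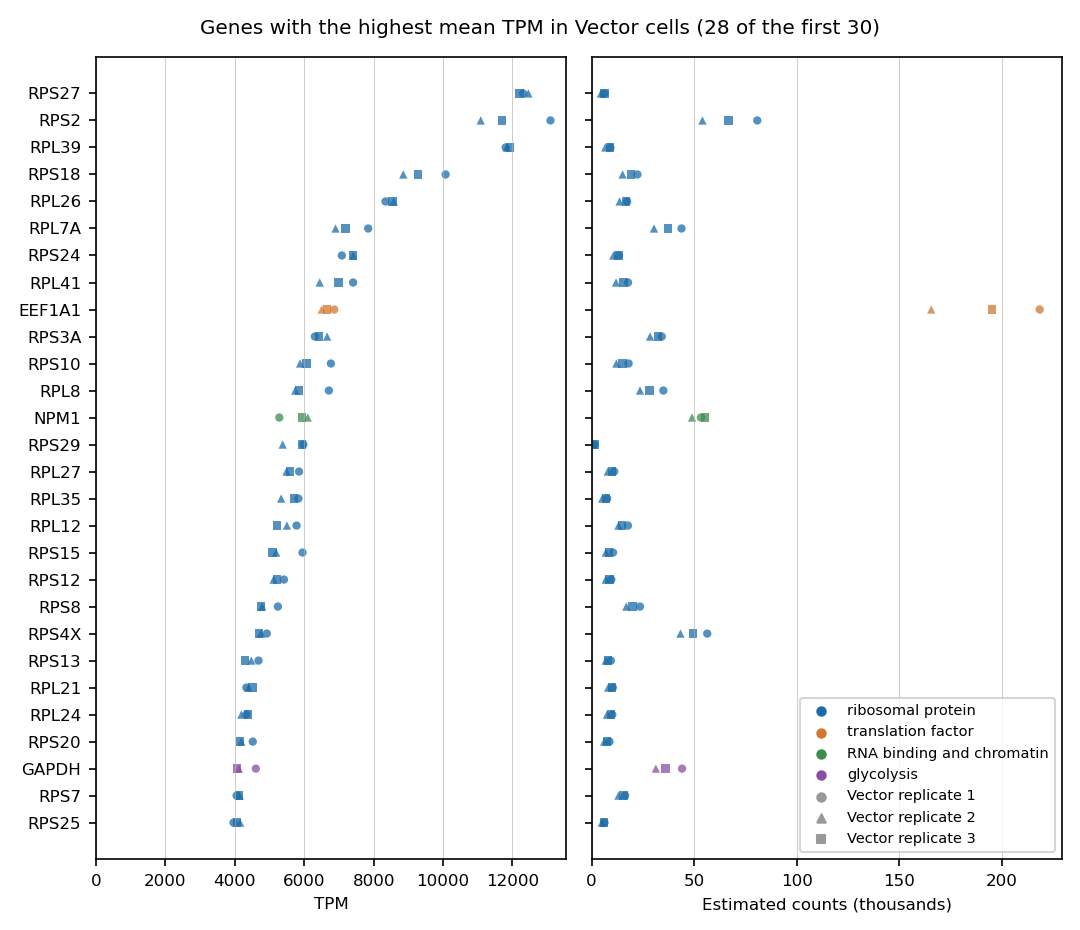
The genes with the highest mean TPM, 28 of the first 30, with each library as a marker, as TPM on the left axis and as estimated counts on the right axis (labelled in units of 1000), both from 0. RPS27 lies between 12202 and 12457 TPM but at 4543 to 6282 counts, and EEF1A1 holds the largest counts of these, between 165574 and 218431.

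Ribosomal protein genes carried the pyrimidine start in 45 of 71 windows (63.4%), and translation factors in 13 of 30 (43.3%). Of the remaining genes at 1000 TPM or more, 5 of 41 (12.2%) had it, and over all 13668 genes with a window 670 had it (4.90%). The letters searched were a C at the annotated start followed by 4 bases that are each C or T, on the transcribed strand only. By level, the share was 3.42% among genes under 0.1 TPM, 4.72% between 10 and 100 TPM, 8.87% between 100 and 1000 TPM and 42.9% at 1000 TPM or more. A match describes letters and is not evidence of regulation.

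The genes of body position were the most fully expressed of the lineage lists. The HOX genes are arranged in 4 clusters and encode homeodomain factors that set position along the body axis, and they are commonly on in cells of trunk and limb origin. Of 38 listed HOX genes 35 were expressed (92.1% against 68.6% of all genes), 3 were low and 0 were silent. HOXA9 stood highest at 112, 106 and 106 TPM (chromosome 7, 27162435 to 27175180, minus strand). HOXA5 (90.8 ± 2.6 TPM), HOXD13 (85.2 ± 1.2), HOXA10 (62.6 ± 0.92) and HOXB9 (46.5 ± 1.5) followed, and no neighbours in this order overlapped. The HOXA cluster was expressed in 11 of 11 genes with a sum of 363 TPM, HOXB in 9 of 9 (138 TPM), HOXC in 8 of 9 (75.5 TPM) and HOXD in 7 of 9 (153 TPM). HOXD1 (0.513 TPM), HOXC12 (0.41 TPM) and HOXD12 (0.23 TPM) were the low members. HOXB1 has no row and was not analysed here.

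Genes of kidney progenitors, a list that spans cap mesenchyme, ureteric cells and stroma, were partly on. Of 19 listed members 11 were expressed (57.9%, against 68.6% of all genes), 6 low and 2 silent. SIX2, a factor that keeps nephron progenitors from differentiating, stood at 24.0, 19.3 and 22.8 TPM (chromosome 2, 45005161 to 45009430, minus strand). CITED1 (21.0 ± 2.2 TPM), another gene of these progenitors, overlapped with SIX2 in its libraries. FOXD1, a factor of the kidney stroma, stood at 15.2 ± 0.66 TPM, HOXD11 at 14.5 ± 0.71, SALL1 at 12.6 ± 0.60 and WT1 at 10.3 ± 0.95. EYA1, EMX2, WNT11 and GATA3 were also expressed, between 2.08 and 3.67 TPM. Against these, PAX8, a factor of nephron formation, was listed at 0 counts in all 3 libraries, and PAX2, its close relative, was low at 0.34, 0.13 and 0.43 TPM. WNT9B was silent (4 counts in all), and OSR1 (0.223 TPM), WNT4 (0.173 TPM), LHX1 (0.563 TPM) and RET (0.797 TPM) were low.

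Genes of the finished kidney were largely silent. Of 17 listed members 3 were expressed, 3 low and 11 silent. PODXL, a surface protein of podocytes that is also made by many embryonic cells, stood at 6.44 ± 0.43 TPM, AQP3, a water channel of the collecting duct, at 2.31 ± 0.60, and LRP2, the endocytic receptor of the proximal tubule, at 1.97 ± 0.13. NPHS1 of the podocyte slit, the salt transporters SLC12A1 and SLC12A3, CDH16 and KCNJ1 were listed at 0 counts in all 3. The members UMOD, SLC22A6, SLC22A8 and FXYD2 have no row and were not analysed here.

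Epithelial and mesenchymal genes were both present, and the label of epithelial cells was checked against them. Of 16 epithelial genes 7 were expressed (43.8%, against 68.6% of all genes), 3 low and 6 silent. They were led by KRT18 (69.9 ± 3.7 TPM) and KRT8 (23.6 ± 1.4), the keratins of simple epithelia, and by the junction genes TJP1 (34.3 ± 6.0) and OCLN (18.1 ± 3.5). The defining adhesion genes EPCAM, at 2.71, 3.30 and 2.49 TPM, and CDH1, which encodes E-cadherin, at 1.29, 1.56 and 1.39 TPM, were expressed at low levels. Of the epithelial regulators ESRP2 was expressed at 5.07 ± 0.24 TPM, and ESRP1 and GRHL2 were silent with 3 and 2 counts in all, while CLDN3 and KRT14 were listed at 0. KRT7 and KRT19 have no row. Of 19 mesenchymal genes 12 were expressed (63.2%), 2 low and 5 silent. VIM, the mesenchymal intermediate filament, stood at 611, 608 and 563 TPM, above KRT18 in every library, and the regulators SNAI2 (60.6 ± 2.1 TPM), ZEB1 (12.2 ± 3.2) and ZEB2 (6.77 ± 1.1) were expressed. SNAI1 (0.643 TPM) and PDGFRA (0.683 TPM) were low, and COL1A2, SPARC, THY1, LUM and PDGFRB were silent. CDH2, the N-cadherin gene, stood at 8.20, 8.19 and 8.22 TPM, above CDH1 in every library. The epithelial label was thus matched by only part of its marker list. The epithelial list was expressed less often than all genes (43.8% against 68.6%). The mesenchymal share, 63.2%, was near that of all genes. The summed level was 712 TPM over the mesenchymal list and 157 TPM over the epithelial list. VIM alone made up 83.4% of the first sum, and the rest of that list came to 118 TPM.

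Neuronal and neural progenitor genes were expressed in part. UCHL1, a deubiquitinase that is abundant in neurons and in many tumour lines, stood at 269, 272 and 260 TPM and made up 85.7% of the TPM of its list. Of 25 neuronal members 10 were expressed (40%, against 68.6% of all genes), 8 low and 7 silent. ENO2 (7.25 ± 0.82 TPM), TUBB3 (6.79, 6.79 and 6.22 TPM), NCAM1 (6.19 ± 0.46) and ELAVL2 (5.85 ± 0.13) lay below UCHL1 and had overlapping neighbours. NEFM, DCX, STMN2 and GAP43, also of the neuronal list, had 0 or 1 count in all. Among the neural progenitor genes, 5 of 11 were expressed (45.5%). They were led by MSI1, an RNA-binding protein of stem cells, at 20.7 ± 3.3 TPM and PAX6, a factor of the forebrain and eye, at 19.9 ± 2.6. SOX2 stood at 7.54 ± 0.36 TPM. SOX1 was silent at 1 count in all.

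HEK293 cells have also been compared with neural crest and adrenal cells. Of 11 neural crest and chromaffin genes 5 were expressed (45.5%, against 68.6% of all genes). They were led by GATA2, a zinc finger factor of blood and nervous system, at 27.6 ± 1.0 TPM. ISL1 (7.82 ± 0.54 TPM), TFAP2A (5.31 ± 0.31), FOXD3 (3.04 ± 0.092) and HAND2 (1.58 ± 0.15) followed. The chromaffin genes TH and DBH, which make catecholamines, and PHOX2A were silent, with 1, 2 and 1 counts in all. Of 7 adrenal cortex genes 0 were expressed, the highest being INHA at 0.153 TPM and NR5A1, the steroidogenic factor, at 0.137 TPM.

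The list of pluripotency and oncofetal genes had 13 of 19 members expressed (68.4%, against 68.6% of all genes) and 6 silent, with a median of 3.18 TPM against 9.55 TPM for all listed genes. Its highest members were oncofetal genes. HMGA1 and HMGA2, chromatin proteins of embryonic and tumour cells, stood at 151 ± 15 and 62.9 ± 6.9 TPM. IGF2BP1 (99.2 ± 2.2 TPM), IGF2BP3 (44.5 ± 5.7) and IGF2BP2 (31.3 ± 0.95), RNA-binding proteins of fetal cells, were all expressed. LIN28B, a repressor of the let-7 microRNAs, stood at 67.9, 87.6 and 84.4 TPM, whereas its relative LIN28A had 1 count in each library (0.04 TPM). MYC stood at 45.3 ± 2.1 TPM and MYCN was listed at 0. NANOG had 1 count in all, and POU5F1, whose pseudogenes share its sequence, was at 1.45 TPM.

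Other families of regulators show which members were used. PAX6, PAX3 (10.03 ± 0.91 TPM) and PAX9 (5.46 ± 0.63) were the 3 expressed of 8 PAX genes. Among the GATA factors GATA2 was followed by GATA4 (14.5 ± 1.7 TPM), GATA6 (6.37 ± 0.19) and GATA3 (2.08 ± 0.17), no neighbours overlapping, while GATA1 was listed at 0. SOX4 (29.04 ± 1.5 TPM) and SOX12 (19.4 ± 0.41) led the SOX genes, of which 9 of 16 were expressed. Of 43 nuclear receptors 31 were expressed (72.1%, against 68.6% of all genes). They were led by NR2F1 (39.2 ± 1.3 TPM), with PPARG at 26.5 ± 2.2 TPM and the glucocorticoid receptor NR3C1 at 21.3 ± 4.0. The progesterone receptor PGR was silent (1 count in all).

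Markers of other cell types were low. In bulk RNA, fewer cells of a type and less RNA per cell cannot be told apart. Over the 6 lists 3 of 36 members were expressed, and the summed level was between 2.61 and 2.81 TPM in each library for the 9 listed microglia and macrophage genes, and 0.50 ± 0.026 TPM for 7 endothelial genes. Of the microglia and macrophage genes 0 were expressed, CD68 being the highest at 1.02 TPM and CSF1R at 0.033 TPM, and the markers PTPRC, AIF1, TREM2 and TYROBP were not analysed here. The 3 expressed genes were CD8A (1.28 ± 0.14 TPM), ACTA1 (2.73 ± 0.17) and HBA1 at 32.9, 24.9 and 22.3 TPM. The HBA1 level rests on 82, 48 and 52 counts and an implied length of 250 bases, and HBA2, a near-identical copy, has no row, so the value for HBA1 is uncertain.

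**Figure D2:**
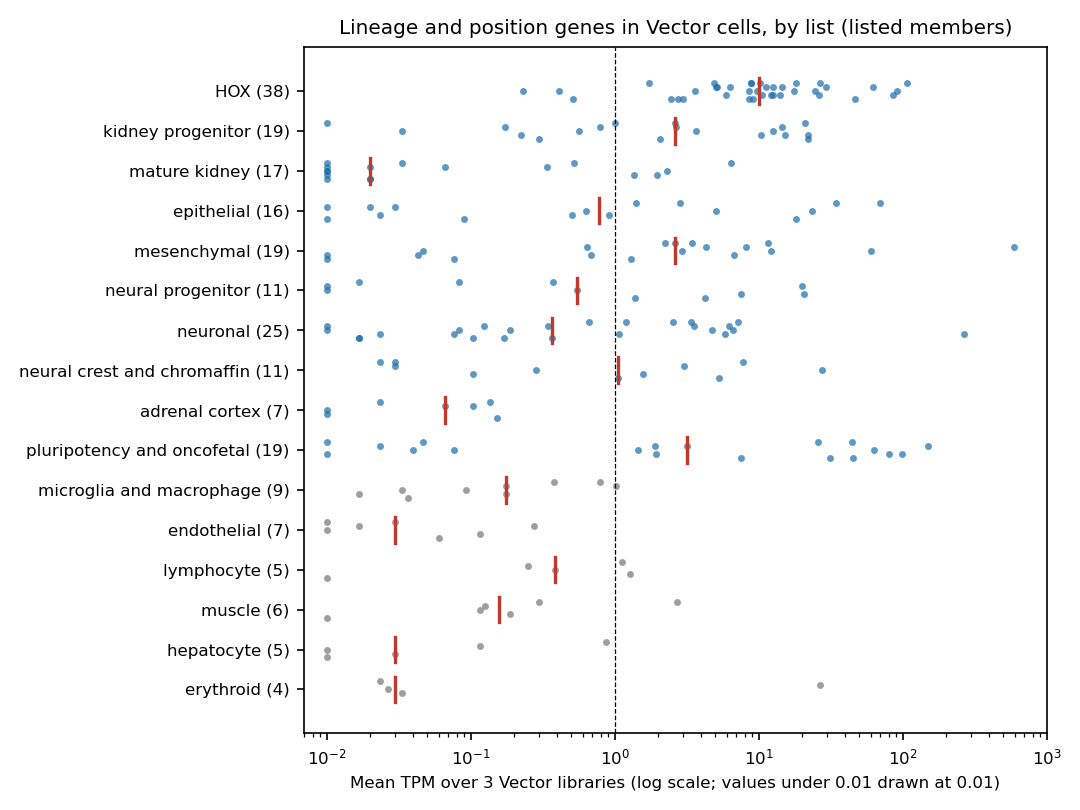
Mean TPM over 3 libraries of every listed gene, by list, on a log axis, with the number of members in brackets. The red bar is the median of the list and the dashed line is 1 TPM. Of the 38 HOX genes 19 lie at 10 TPM or more, the kidney progenitor median is 2.61 and the mature kidney median 0.02, and grey lists are markers of other cell types.

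Growth factor receptors were expressed less often than all genes, with some members at moderate level. Receptor tyrosine kinases pass growth factor signals across the membrane. Of 58 listed, 28 were expressed (48.3%, against 68.6% of all genes), 17 low and 13 silent. Their median was 1.22 TPM, against 9.55 TPM for all listed genes. RYK, a WNT co-receptor, led at 44.2, 52.3 and 49.1 TPM (chromosome 3, 134065303 to 134250744, minus strand). EPHB4, an ephrin receptor, stood at 28.5 ± 1.5 TPM and overlapped with PTK7 (27.1 ± 1.1), and FGFR1 (24.8 ± 0.65) and ERBB2 (23.0 ± 0.43) followed. MET, the hepatocyte growth factor receptor, stood at 22.8 ± 3.7 TPM and overlapped with ERBB2. IGF1R (12.9 TPM), INSR (6.23 TPM) and EGFR (3.65 TPM) were expressed lower. EPHA1, ERBB4, INSRR, MUSK and NTRK3 were listed at 0 in all 3, and the ALK, ROS1 and PDGFRB genes were silent.

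Of the receptors of developmental pathways, the WNT list was expressed in a larger share (86.7%) than all genes (68.6%). The TGF-beta and BMP list and the Notch and Hedgehog list, both at 71.4%, were near the share of all genes. Of 15 WNT receptor genes 13 were expressed, led by LGR4 (34.5 ± 3.9 TPM) and FZD6 (28.0 ± 3.9), and FZD10 and LGR6 were silent. Of 14 TGF-beta and BMP receptors 10 were expressed, led by TGFBR1 at 37.5 ± 5.9 TPM, with BMPR1A, ACVR2B and ACVR1B between 19.7 and 21.1 TPM and overlapping. Of 7 Notch and Hedgehog receptors 5 were expressed, NOTCH2 at 54.9 ± 1.6 TPM and SMO, the Hedgehog signal transducer, at 22.3 ± 1.1. Over these lists and the receptor tyrosine kinases together, 56 of 94 were expressed (59.6%), below the 68.6% of all genes.

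Cytokine receptors were divided by family. Both subunits of the interferon gamma receptor, IFNGR1 (62.2, 76.3 and 70.8 TPM) and IFNGR2 (65.3 ± 2.3), led the list and overlapped, and the type 1 interferon receptor subunits IFNAR1 (40.9 ± 4.8 TPM) and IFNAR2 (23.1 ± 2.2) were expressed. IL10RB (31.7 ± 2.1 TPM), IL6ST (30.7 ± 4.4) and IL13RA1 (30.4 ± 2.2) were close together. Of 40 members 21 were expressed, 10 low and 9 silent, and the silent ones included IL23R and PRLR, listed at 0. Of 25 TNF receptor genes 12 were expressed, 8 low and 5 silent. TNFRSF10B, the TRAIL death receptor, stood at 31.4 ± 0.41 TPM and TNFRSF1A, the main TNF receptor, at 27.7 ± 0.95, their libraries not overlapping, while TNFRSF1B was low at 0.107 TPM. In the interleukin-1 family 3 of 7 were expressed, IL1RAP at 3.66 ± 0.80 TPM and IL1R1 low at 0.723 ± 0.072 TPM.

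Most G protein-coupled receptors, which pass signals of small molecules and peptides to G proteins, were low or silent. Of 117 listed genes 18 were expressed (15.4%), 42 low and 57 silent, against 68.6% expressed among all genes. Of 41 receptors for peptides and amino acids 6 were expressed, F2R, the thrombin receptor, at 22.7, 26.8 and 24.9 TPM, F2RL1 at 19.4, 19.2 and 19.4 TPM, then GABBR1, VIPR1, CASR and MC1R between 2.12 and 7.85 TPM. Of 34 for nucleotides and lipids 9 were expressed. ADORA2B, the low-affinity adenosine receptor, stood at 17.2, 17.2 and 17.2 TPM, and LPAR3 at 12.96 ± 1.1 TPM, LPAR1 at 4.75 ± 0.39 and S1PR3 at 4.10 ± 0.17. Of 26 monoamine and acetylcholine receptors 2 were expressed, CHRM3 at 2.43 ± 0.38 TPM and ADRA2C at 1.87 ± 0.13. DRD2 and HTR2A, receptors for dopamine and serotonin, were silent with 3 and 2 counts in all. Of 16 chemokine receptors 1 was expressed, CXCR4, at 2.86, 2.25 and 2.27 TPM, 7 were low and 8 silent. CCR1, CCR8, CCR9, CXCR1 and CXCR2 were listed at 0, and CCR7 and CXCR3 were not analysed here.

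Most listed kinases were expressed. Over all lists 315 of 402 kinases (78.4%) were expressed, 59 low and 28 silent, against 68.6% of all genes. Of the cytoplasmic and nuclear kinases alone 287 of 344 (83.4%) were expressed, with a median of 18.3 TPM against 9.55 TPM for all listed genes. These shares are descriptions, since the lists were chosen by hand.

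Of the listed kinases 19 had a mean of at least 100 TPM. CDK4, which acts with cyclin D in the G1 phase, stood at 238, 212 and 225 TPM (chromosome 12, 57747727 to 57756013, minus strand). CDK1, the kinase of mitosis, was at 204 ± 28 TPM and overlapped with CDK4, and CDK2 was at 142 ± 1.6 TPM. CDK6, a close relative of CDK4 that also pairs with cyclin D, was low, at 0.97, 1.51 and 1.45 TPM. PRKDC, the catalytic subunit of the DNA-dependent kinase, stood at 190 ± 25 TPM, PLK1 at 151 ± 7.3, IRAK1, a kinase of innate signalling, at 139 ± 9.6, SRPK1, a kinase of splicing factors, at 137 ± 20, AURKA at 133 ± 2.8, AURKB at 131 ± 7.7 and CDC7 at 124 ± 19 TPM. MELK, a kinase of dividing cells, led the CAMK group at 102 ± 6.8 TPM. Among the polo-like kinases PLK4 was at 40.6 TPM, while PLK2 (chromosome 5, 58453982 to 58460260, minus strand) stood at 2.28, 3.01 and 2.03 TPM and PLK3 at 1.75 ± 0.43 TPM.

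The kinase groups differed in their share of expressed members. Of the CK1 and other kinases 65 of 72 were expressed, of TKL kinases 25 of 29, of CAMK kinases 47 of 55, of AGC kinases 46 of 55, of CMGC kinases 50 of 60 and of STE kinases 37 of 45. The non-receptor tyrosine kinases were lower, with 18 of 29 expressed, PTK2 (73.1 ± 8.4 TPM), FYN (62.6 ± 0.51) and JAK1 (62.0 ± 6.1) being the highest. LCK, BLK and BMX, kinases of lymphoid or endothelial cells, were silent, and FGR was not analysed here. In the mitogen-activated cascade MAP2K2 stood at 111 ± 6.7 TPM. GRK6 led the AGC group at 72.7 ± 3.5 TPM, and each neighbour in the order GRK6, PKN2, PRKACA and AKT1 overlapped with the next.

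**Figure D3:**
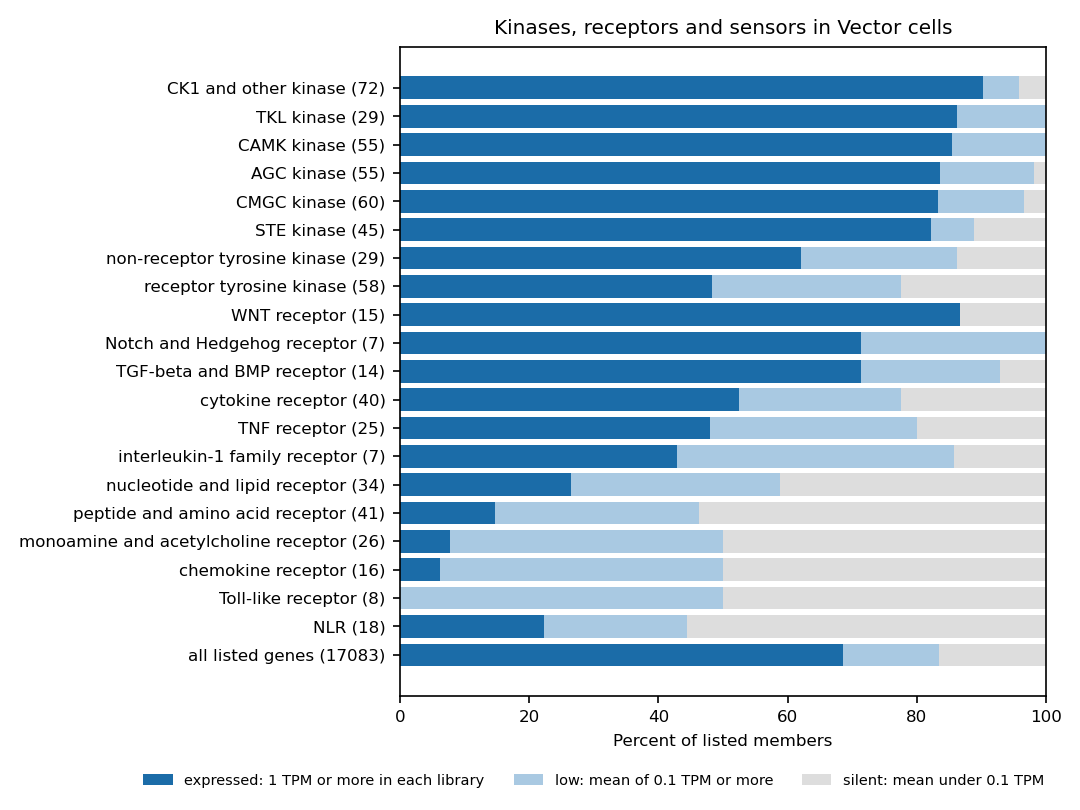
Percent of listed members that were expressed, low or silent, by list, with the number of members in brackets and all listed genes in the last bar. Most kinase lists lie above 80% expressed, chemokine receptors are at 6.25%, and no Toll-like receptor was expressed.

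Most first sensors of innate immunity were low or silent, and the adaptors, kinases and factors that carry their signal were mixed, with several adaptors low. Toll-like receptors detect microbial products at the surface or in endosomes, RIG-I-like receptors detect RNA and cGAS detects DNA in the cytosol, and NLR proteins detect damage or bacterial products. Over the Toll-like receptors, the NLR genes, RIGI, IFIH1, DHX58, CGAS, STING1, IFI16 and ZBP1, 5 of 33 were expressed (15.2%), 11 low and 17 silent. Of 8 listed Toll-like receptors 0 were expressed. TLR6 was highest at 0.79, 1.26 and 1.21 TPM (45, 63 and 68 counts), with 2 of its 3 libraries above 1 TPM, so that without replicate 1 it would count as expressed (1 of 8). TLR1 was at 0.51 ± 0.17 TPM, TLR5 at 0.177 and TLR9 at 0.13, and TLR3, the receptor of double-stranded RNA, was silent at 0.097 TPM with 15 counts in all. TLR7, TLR8 and TLR10 were silent with 3, 1 and 2 counts. TLR2, TLR4 and the TLR4 partner LY96 have no row and were not analysed here.

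Partners of the Toll-like receptors were expressed unevenly. HMGB1, a nuclear protein that activates these receptors when released, stood at 638 ± 52 TPM. IRAK1, a kinase of innate signalling, stood at 150, 136 and 132 TPM. TRAF3 (23.2 ± 1.3 TPM), IRAK4 (14.7 ± 1.9), TRAF6 (9.81 ± 1.2) and TIRAP (9.14 ± 0.59) were expressed. MYD88, the adaptor of most of these receptors, was low by the rule at 1.32, 0.81 and 1.27 TPM. TICAM1, the TLR3 adaptor, was also low by the rule, at 1.36, 1.15 and 0.97 TPM. The mean of each was above 1 TPM, and a single library fell below it. CD14, a co-receptor for lipopolysaccharide, was at 0.377 ± 0.28 TPM. Of 15 listed partners 9 were expressed.

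For RNA sensing, RIGI was expressed at 2.70, 4.61 and 3.77 TPM (chromosome 9, 32455705 to 32526324, minus strand, listed under its older symbol DDX58). IFIH1, the MDA5 sensor, was low at 0.82 ± 0.20 TPM and DHX58 silent at 0.05. Their adaptor MAVS stood at 20.1, 19.9 and 20.5 TPM (chromosome 20, 3846799 to 3876123, plus strand), above RIGI in every library, and TRIM25, which modifies RIGI, at 23.1 ± 0.92 TPM.

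For DNA sensing, the cGAS-STING axis was low. CGAS was at 0.07, 0.17 and 0.19 TPM and STING1, its adaptor, at 0.31, 0.39 and 0.24 TPM. IFI16 and ZBP1 were silent, with 1 and 2 counts in all, and AIM2 has no row. TREX1 was also silent by the rule, at 1.2 counts in all. Its count is not whole, so reads may be split with another entry and its level is uncertain. The DNA repair proteins that also bind DNA in sensing were abundant, XRCC6 at 1020 ± 45 TPM (chromosome 22, 41621119 to 41664048, plus strand), XRCC5 at 435 ± 30 and PRKDC as given above.

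Of 18 NLR genes 4 were expressed, NLRX1, a mitochondrial member, at 9.98 ± 0.99 TPM, NAIP at 9.10 ± 1.6, NOD1, a sensor of bacterial peptidoglycan, at 5.30 ± 0.41 and NLRC4 at 2.02 ± 0.35. NLRP3 was silent with 2 counts in all, and NLRP1, NLRP2, NLRP4, NLRP6, NLRP9 and NLRP10 were listed at 0. Of 8 inflammasome effectors 2 were expressed, CARD8 at 18.7 ± 3.9 TPM and GSDME at 5.15 ± 0.85. PYCARD, the adaptor of the inflammasome, was at 0.27, 0.00 and 0.29 TPM, and CASP4 and IL1B were listed at 0 in all 3. CASP1 was not analysed here.

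Most listed downstream kinases and factors were expressed. TBK1, which activates IRF3, stood at 37.9, 54.0 and 50.5 TPM, and IRF3 at 42.5 ± 1.9. CHUK, a subunit of the IKK complex, was at 71.2 ± 13 TPM and IKBKB, the IKKβ subunit named in the series title, at 19.7, 18.5 and 17.3 TPM, while IKBKE was low at 0.84. RELA stood at 47.6 ± 3.3 TPM and MAP3K7 at 53.2 ± 8.0. IRF7 was low at 0.49 TPM and IRF4 and IRF5 were silent. Of 24 listed members 19 were expressed (79.2%, against 68.6% of all genes). Restriction factors, which limit viruses, were expressed in 19 of 29 (65.5%). They were led by ADAR, an RNA editor, at 139 ± 3.0 TPM, IFITM1 at 82.6 ± 2.3 and IFITM2 at 67.7 ± 4.1. MX1 was at 0.103 TPM, and OAS2, MX2, BST2 and RSAD2 were silent.

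**Figure D4:**
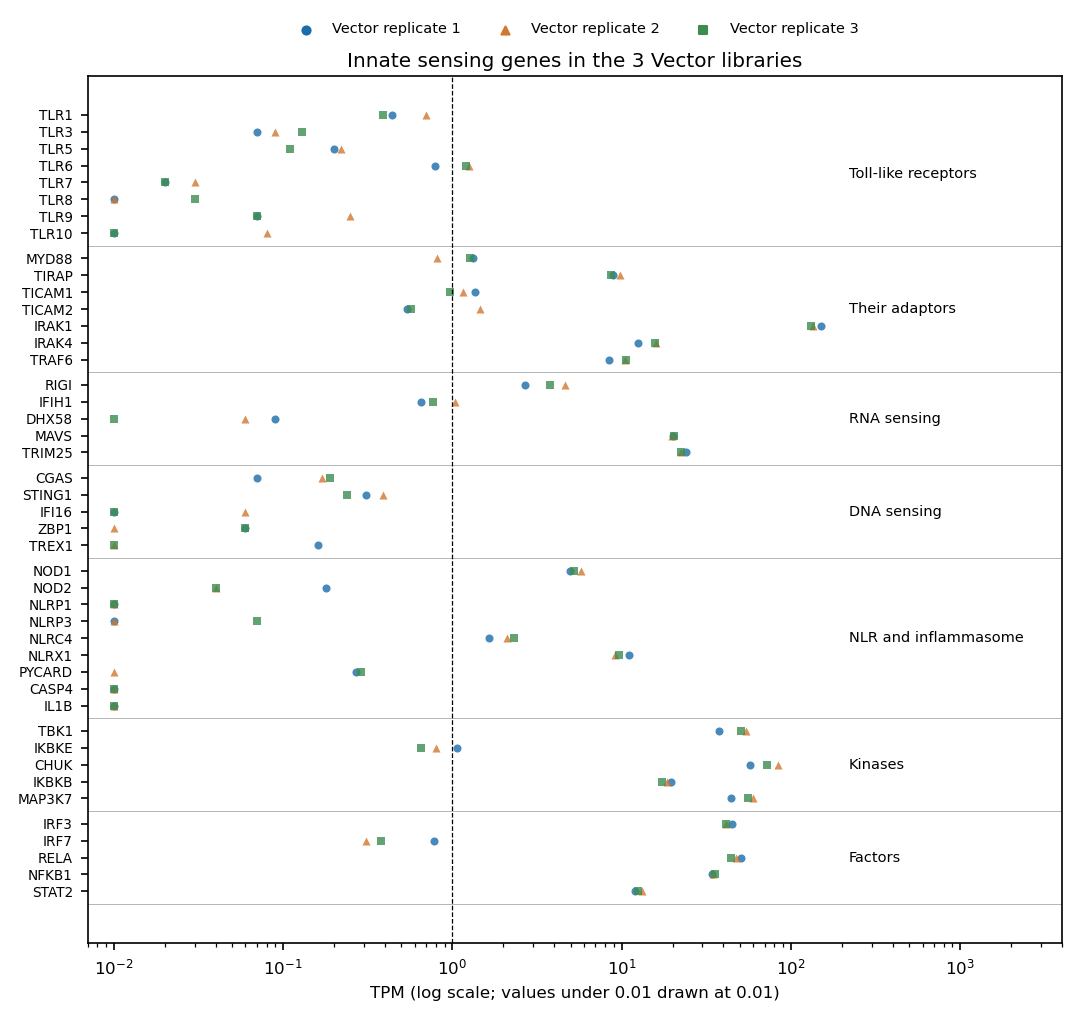
TPM of innate sensing genes in each of the 3 libraries, on a log axis, from first sensors at the top to kinases and factors at the bottom. The dashed line is 1 TPM, values under 0.01 are drawn at 0.01, and Toll-like receptors lie near or left of the line while TBK1 and RELA lie between 37.9 and 54.0 TPM.

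Sequence around the start was described for genes at each level. Promoters rich in CpG (a C followed by a G) are common in widely expressed genes and in developmental regulators, and many tissue-restricted genes have few. Over RefSeq windows of 300 bases (250 before and 50 from the start), the median ratio of observed to expected CpG was 0.363 for genes under 0.1 TPM, 0.563 between 0.1 and 1, 0.789 between 1 and 10, 0.864 between 10 and 100, 0.892 between 100 and 1000 and 0.901 at 1000 TPM or more. A ratio under 0.5 was found in 61.3% of windows of silent genes and 22.5% of all 13668. The letters TATAAA, in the 50 bases before the start on the transcribed strand, were in 6.74% of windows under 0.1 TPM, 0.985% between 10 and 100 TPM and 5.10% at 1000 TPM or more. The GC box GGGCGG, on either strand, was in 37.3% of windows under 0.1 TPM and 73.0% between 10 and 100.

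The lists also differed in CpG ratio, but not always in the order of their shares of expressed members. Restriction factors (65.5% of listed members expressed) had a median CpG ratio of 0.687 over 17 windows. Kidney progenitor genes (57.9% expressed) had a higher one. The median CpG ratio was 0.871 in 19 HOX windows, 0.810 in 13 of kidney progenitor genes and 0.890 in 17 of innate signalling genes. It was 0.235 in 12 windows of mature kidney genes, of which 5 held TATAAA, 0.314 in 11 of chemokine receptors and 0.377 in 13 of NLR genes. These windows are few and the lists were chosen by hand. In the next lines, 200 bases ending 50 bases before the RefSeq start (GRCh38.p14) are shown with each CpG in capitals for a pair of kidney factors, SIX2 (22.0 TPM) and PAX8 (0 counts), and for a pair of innate genes, MAVS (20.2 TPM) and TLR3 (0.097 TPM).
SIX2, chr2:45009503-45009702, minus strand: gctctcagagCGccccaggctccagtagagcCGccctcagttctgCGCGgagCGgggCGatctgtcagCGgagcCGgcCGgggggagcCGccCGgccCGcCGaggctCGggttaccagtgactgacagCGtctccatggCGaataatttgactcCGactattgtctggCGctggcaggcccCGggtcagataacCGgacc
PAX8, chr2:113278972-113279171, minus strand: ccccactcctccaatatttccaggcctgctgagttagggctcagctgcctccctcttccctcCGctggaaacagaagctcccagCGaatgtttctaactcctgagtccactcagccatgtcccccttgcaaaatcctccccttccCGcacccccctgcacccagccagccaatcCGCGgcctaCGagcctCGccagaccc
MAVS, chr20:3846584-3846783, plus strand: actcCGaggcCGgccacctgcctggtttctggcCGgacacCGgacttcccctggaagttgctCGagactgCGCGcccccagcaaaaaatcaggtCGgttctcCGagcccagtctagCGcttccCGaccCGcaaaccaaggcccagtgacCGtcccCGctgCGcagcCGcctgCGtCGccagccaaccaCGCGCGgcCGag
TLR3, chr4:186068906-186069105, plus strand: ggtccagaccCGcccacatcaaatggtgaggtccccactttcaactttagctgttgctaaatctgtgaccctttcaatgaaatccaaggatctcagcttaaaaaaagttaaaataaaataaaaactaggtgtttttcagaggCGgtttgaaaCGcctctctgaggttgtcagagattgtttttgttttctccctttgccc

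The SIX2 stretch held 20 CpG and the PAX8 stretch 7, and the MAVS stretch held 22 against 3 for TLR3. The pairs were chosen with their levels known, as examples of the medians by level and not of the medians by list. PAX8 is in the same kidney progenitor list as SIX2. The median CpG ratio over 5 windows of Toll-like receptors was 0.557. A count of CpG describes these letters and says nothing on the methylation of the cells.

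**Figure D5:**
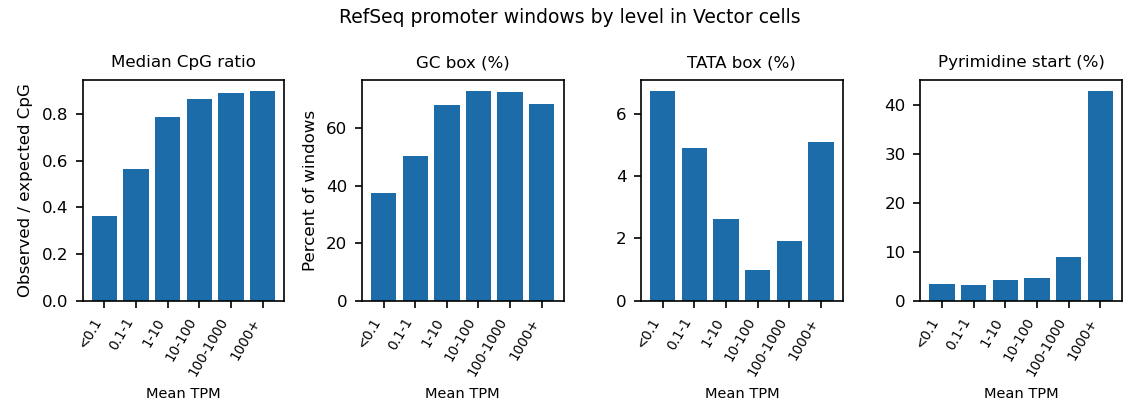
Features of RefSeq promoter windows by mean TPM of the gene, as bars from 0. From left to right they show the median CpG ratio, the percent of windows with the GC box, with TATAAA, and with the pyrimidine start. The CpG ratio increases from 0.363 to 0.901 and the pyrimidine start stays below 10% except at 1000 TPM or more, where it is 42.9%.

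The 3 libraries were close but not equally so. Over 11957 genes with a mean of at least 1 TPM, the median coefficient of variation was 8.27%, and it was 11.95% between 1 and 10 TPM and 5.35% at 1000 TPM or more. Pearson's r of log2(TPM + 1) across these genes, which are not independent replicates, was 0.991 for replicates 1 and 2, 0.994 for 1 and 3 and 0.996 for 2 and 3. Replicate 1 stood apart with implied gene length. Relative to replicate 1, the median log2 difference of replicate 2 was -0.07 in the 2369 genes of shortest implied length and 0.24 in the 2369 longest, and that of replicate 3 was -0.05 and 0.18. Levels of long genes such as PRKDC (162 TPM in replicate 1, 211 and 197 in the others) and of short ones such as RPS2 (13095 TPM in replicate 1, 11085 and 11700 in the others) differed in the direction of these medians, whereas short genes such as RPL39, RPL26 and RPS24 were no lower in replicate 2 than in replicate 1. The part of the trend in single levels was not tested.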

How the data were processed

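RNA of 9 HEK293T libraries was sequenced after oligo(dT) selection, per the labels' protocols, and the 3 Vector libraries were described. The submitters' processing notes name GRCh38.p13, RSEM 1.3.1, Bowtie2 and DESeq2 1.4.5 without a role for each, and neither annotation nor strandedness was stated there. Per the file headers the deposited table gives estimated counts, TPM and FPKM made by the authors. TPM was used as deposited, and estimated counts and FPKM for depth and implied length. A further 27 per-library columns and 12 columns of averages were not used.

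Of 17083 genes, 17025 matched RefSeq by NCBI gene identifier. The 53 lists hold 1312 genes, of which 115 have no row; with a class of 91 ribosomal protein genes taken from the table, 1288 listed genes in 54 lists were counted. The members and lists were chosen with earlier results of these data known. Named genes are the 20 highest, up to 5 per list, silent defining members, the 10 most variable at 10 TPM or more, PLK2, HSP90AA1 and IKBKB; others, such as IGF1R, EGFR, PPARG and IGF2BP3, were named after their values were seen. No test between groups was made, so a gene is compared only by whether its libraries overlap. Alternatives were other TPM minima, a mean rule, rescaled TPM or FPKM, a count minimum, another pseudocount or scaling, and each library left out. Coordinates are from GENCODE release 29, and sequences and starts from RefSeq GRCh38.p14, the first listed start per gene. Python 3.11.15, pandas 2.3.3 and numpy 2.4.6 were used. Some genes that the rule for named genes takes are not reported here.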

Additional observations from a re-analysis of the deposited data

How the results depend on the processing

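No paired analysis was possible because the results come from no test and concern 1 group. The count of expressed genes, 11714, was 12339 at a minimum of 0.5 TPM, 10964 at 2 TPM, 11957 by the mean alone and 11760 to 11823 without any one library. The share of TPM in the 100 highest genes, 36.3%, was 16.2% of the estimated counts, 21.3% without ribosomal protein genes, 29.9% without genes of an implied length under 300 bases (chosen after seeing the data) and 35.7% to 36.8% without any one library; the counts change the divisor, and the other removals the genes, by construction. Of the 1288 listed genes 876 were expressed, and 816 to 931 over the alternatives, with 881 to 885 without any one library. The median range of log2(TPM + 1) over the libraries, 0.207, was 0.0785 to 0.169 without any one library, where only 2 libraries remain, and was lowest without Vector replicate 1. The median CpG ratio of genes at 1 TPM or more less that of genes under 0.1 TPM, 0.488, was 0.511 for genes with 1 listed start (chosen after seeing the data); the cause was not tested. Over 54 lists and 6 alternatives, 313 of 324 counts of expressed members stayed within 1.5 times the count given, and 46 lists did so throughout. Of the others, Toll-like receptors went from 0 to 1 (TLR6) at 0.5 TPM and without Vector replicate 1, and mature kidney genes from 3 to 1 and monoamine receptors from 2 to 1 at 2 TPM. At 0.5 TPM microglia and macrophage genes went from 0 to 2 and chemokine receptors from 1 to 2. Depth limits levels near 0.1 TPM, which rest on few counts.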

Other observations

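Among genes at 10 TPM or more, the largest ranges between libraries included genes with near-identical copies and genes with few counts. SMIM11A was listed at 39.1, 0.01 and 30.7 TPM and its copy SMIM11B at 24.8, 58.7 and 31.9 TPM. NPIPA3 was at 15.9, 4.75 and 13.2 TPM and NPIPA2 at 11.9, 28.7 and 25.3 TPM. BOLA2B was at 66.7, 134 and 50.6 TPM, from 43.8, 59.8 and 32.4 estimated counts, and BOLA2 at 270.2, 226 and 289 TPM. HSPA1B was at 885 ± 51 TPM and its near-identical copy HSPA1A at 5.94 ± 0.94 TPM. H4C11, a histone gene, was at 20.9, 0.00 and 10.7 TPM from 16, 0 and 8 counts, and the remaining most variable genes were SMIM27, ASB3, ASDURF and MTRNR2L9. The levels of genes with near-identical copies are uncertain, since counting can split reads between copies.

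The 9 MTRNR2-like genes, which resemble the mitochondrial 16S ribosomal RNA gene, held 0.624% ± 0.051 of the TPM. MTRNR2L2 was at 3641, 3038 and 3268 TPM and MTRNR2L8 at 2989, 2621 and 2710 TPM. EEF1A2, the muscle and neuron form of EEF1A1, stood at 37.5 ± 3.7 TPM, and LDHC, the testis form of lactate dehydrogenase, at 15.8 ± 5.5 TPM.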
